A study of Mus musculus with 4 samples.

Results

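The genes described here are 10 cyclins and cyclin-dependent kinases (CDKs) of the cell division cycle in mouse regulatory T cells (Treg), which restrain immune responses and are marked by the transcription factor Foxp3. They were chosen by symbol, and a gene was measured only by a probe set to which the platform annotation gives exactly 1 gene symbol. That held for 7 of the 10, namely Ccnd2, Ccnd3, Ccne1, Ccna2, Ccnb2, Cdk1 and Cdk2, among 22180 genes measured in this way, and each of the 7 had 1 probe set. The probe sets listed for Ccne2 and Ccnf also list another gene, and none is listed for Ccnb1, so these 3 are not analysed here.

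RNA came from Treg sorted 4 days after an intraperitoneal injection of an agonistic antibody against death receptor 3 (DR3, a costimulatory receptor of the tumour necrosis factor receptor superfamily) or of an isotype control antibody. There were 2 arrays in each group, whose intensities the authors had normalized with robust multi-array average (RMA), a method that equalises the arrays and merges the probes of each probe set into a single value. A gene was tested where it exceeded the median of its array on at least 2 of the 4 arrays, which all 7 measured cyclin and kinase genes did. Every mouse was of the strain labelled Foxp3Luci-DTR-4(B6 Albino), and cells of both groups were gated as CD4+ and positive for the green fluorescent Foxp3 reporter. The labels give no age, sex or number of mice behind an array, nor whether replicates came from separate animals. The spread behind each p-value is therefore that between arrays and may be technical. The 2 groups are called anti-DR3 Treg and control Treg.

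Cyclins are regulatory subunits that switch on CDKs at set points of the division cycle. D-type cyclins work with Cdk4 and Cdk6 in G1, the phase before DNA is copied, and start to phosphorylate the retinoblastoma family of pocket proteins. E-type cyclins with Cdk2 carry the cell into S phase, the phase of DNA synthesis, cyclin A acts through S phase and G2, and B-type cyclins with Cdk1 drive mitosis. In lymphocytes D-type cyclins respond to growth signals, while the cyclins of S phase and mitosis are made and destroyed once in each division. Resting T cells therefore carry little RNA of the latter.

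The start regions of these genes differ in short DNA words that cell cycle promoters are known for. RefSeq windows of 300 bases (build GRCm38.p6, 250 bases before the annotated start and 50 after it) were available for 7 of the 10 genes, and not for Ccna2, Ccnd2 and Ccne2. The windows were searched on both strands for 3 kinds of word. The first was the cell cycle homology region (CHR), an element of many G2 and mitosis genes, spelled as TTTGAA (found in 17.9% of all windows), as TTCGAA (found in 1.56%), as CTTGAA (found in 13.2%) or as TTTAAA (found in 13.2%). The second was CCAAT, bound by the factor NF-Y. The third was the E2F type, spelled as TTCCCGC (found in 4.60%), as TTGGCGC (found in 2.45%), as TTCGCGC (found in 1.59%) or as TTGCCGC (found in 1.81%). Of 32841 windows searched, 37.3% held a CHR word, 37.4% a CCAAT word, 9.57% an E2F word and 14.5% both a CHR and a CCAAT word. The windows of 4 measured genes are shown 5′ to 3′ on the strand of the gene, because they set the mitotic pair beside genes of the step from G1 to S, with every word found in capitals (a word on the opposite strand shows as its reverse complement).
Ccnb2 (chr9:70421505-70421804, minus strand): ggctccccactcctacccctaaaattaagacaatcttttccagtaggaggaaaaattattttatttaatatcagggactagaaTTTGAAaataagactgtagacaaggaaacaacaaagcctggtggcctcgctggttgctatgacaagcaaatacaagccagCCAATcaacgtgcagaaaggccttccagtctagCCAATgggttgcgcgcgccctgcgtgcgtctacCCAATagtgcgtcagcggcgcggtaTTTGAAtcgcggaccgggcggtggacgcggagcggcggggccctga
Cdk1 (chr10:69352863-69353162, minus strand): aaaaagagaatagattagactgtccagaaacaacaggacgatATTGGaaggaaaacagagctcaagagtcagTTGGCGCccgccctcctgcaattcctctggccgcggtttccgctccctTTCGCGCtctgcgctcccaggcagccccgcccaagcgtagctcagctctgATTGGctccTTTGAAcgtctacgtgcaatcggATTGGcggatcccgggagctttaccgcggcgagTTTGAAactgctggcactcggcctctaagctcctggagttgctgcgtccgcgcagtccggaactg
Ccne1 (chr7:38107441-38107740, minus strand): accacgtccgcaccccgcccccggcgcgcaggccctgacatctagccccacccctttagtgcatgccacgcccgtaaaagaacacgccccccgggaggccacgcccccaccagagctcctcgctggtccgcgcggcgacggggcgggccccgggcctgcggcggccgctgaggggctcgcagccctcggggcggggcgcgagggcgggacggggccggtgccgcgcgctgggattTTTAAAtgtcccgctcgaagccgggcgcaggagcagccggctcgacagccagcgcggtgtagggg
Cdk2 (chr10:128705002-128705301, minus strand): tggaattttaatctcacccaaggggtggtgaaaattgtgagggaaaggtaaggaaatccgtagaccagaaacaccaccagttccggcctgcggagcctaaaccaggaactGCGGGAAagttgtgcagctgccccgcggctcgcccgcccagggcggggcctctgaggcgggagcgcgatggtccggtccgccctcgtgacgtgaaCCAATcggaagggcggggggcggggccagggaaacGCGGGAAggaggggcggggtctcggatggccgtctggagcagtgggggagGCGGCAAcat

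The window of Ccnb2 held 2 CHR words, both TTTGAA, and 3 CCAAT words, with the CCAAT words at bases -87, -54 and -21 from the start and a CHR word at base 5. That of Cdk1 held 2 CHR words, again TTTGAA, at -71 and -15, 3 CCAAT words on the opposite strand and 2 E2F words. Ccne1 held 1 CHR word, TTTAAA at -15, and Cdk2 held 1 CCAAT word and 3 E2F words. Of the 2 windows listed for Ccnd3, 1 held a CCAAT word and neither held a CHR or E2F word. The windows of the unmeasured Ccnb1 and Ccnf held 1 and 2 CHR words and 2 CCAAT words each, and in Ccnb1 an E2F word overlapped a CCAAT word. A match describes the letters of the window and does not show that a factor was bound, and no match says only that these words are not in it.

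After anti-DR3, the RNA of Ccna2, the cyclin of S phase and G2, rose 3.58-fold and that of Ccnb2, a mitotic cyclin, rose 2.91-fold, while the measured cyclins of G1 and of entry into S phase, Ccnd2, Ccnd3 and Ccne1, lay within 0.07 of 0 on the log2 scale and did not pass the test. The kinases Cdk1 and Cdk2 lay between these, at 0.47 and 0.38 on the log2 scale, and did not pass the threshold. Thus 2 of the 7 measured genes rose and 0 fell in limma at an adjusted p of 0.05, where 4.49% of the 12114 genes tested rose and 1.47% fell (5.96% in all). The groups did not overlap for 4 of the 7, each with anti-DR3 higher, against 56.1% of all genes tested in either direction and 31.6% with anti-DR3 higher. Differences are taken as the anti-DR3 mean less the control mean of log2 array intensity, where 1 is a doubling. An exact permutation test of 2 arrays against 2 cannot go below p = 0.333, so p-values come from the limma fit over all genes.

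**Figure D1:**
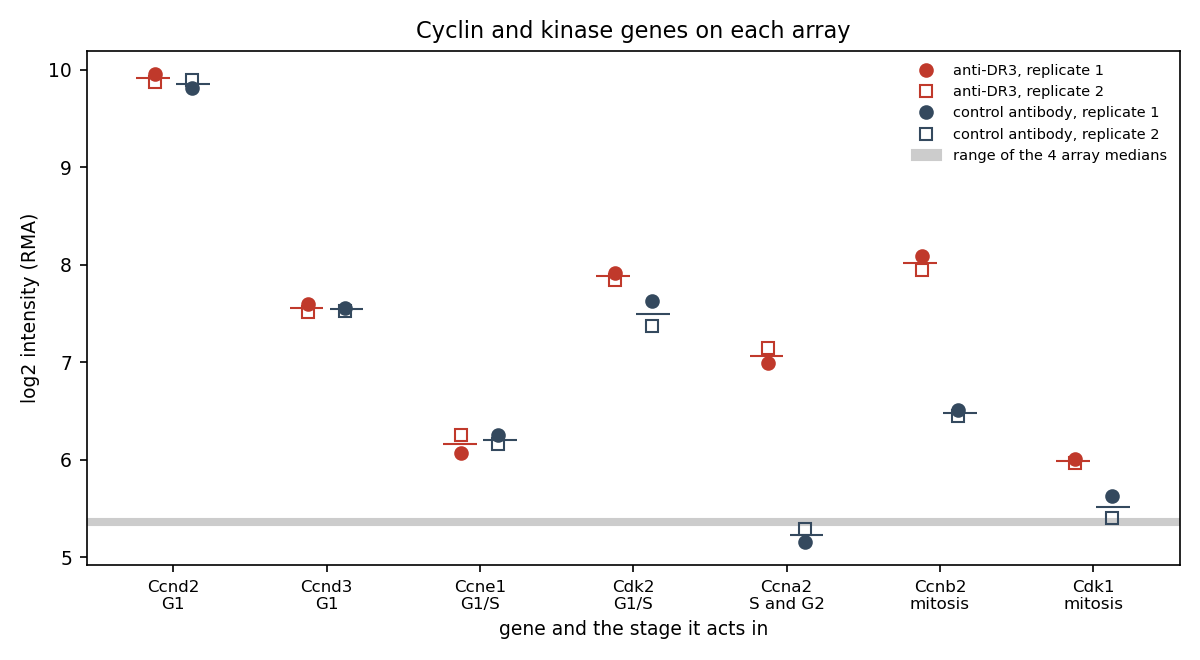
Log2 intensity of the 7 measured genes on each of the 4 arrays, in the order of the stages they act in, with short lines at the group means and a grey band over the range of the array medians (5.33 to 5.39). The groups lie far apart for Ccna2 and Ccnb2, less so for Cdk1 and Cdk2, and overlap for Ccnd2, Ccnd3 and Ccne1. Heights of different genes come from different probes and are not comparable.

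For the D-type cyclins of G1 the groups overlapped. Ccnd2, the cyclin D2 that lymphocytes use to enter the cycle, gave log2 values of 9.96 and 9.88 in anti-DR3 Treg and 9.82 and 9.89 in control Treg. The difference was 0.06 ± 0.083 (SE, n = 2 arrays per group; 95% interval -0.14 to 0.26; adjusted p = 0.689, limma). Ccnd3, the cyclin D3 of lymphocyte precursors and activated T cells, read 7.60 and 7.52 in anti-DR3 Treg and 7.56 and 7.53 in control Treg. The difference of 0.01 ± 0.080 had a 95% interval of -0.19 to 0.21 (adjusted p = 0.948, limma). Neither interval reaches a difference of 0.3, although a p that misses the threshold does not show that the groups were equal. The sign of Ccnd3 is not settled: centring every array on its own median over all genes tested gave -0.05 and quantile normalization gave -0.06.

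At the step into S phase the cyclin and its kinase differed in pattern. Ccne1, cyclin E1, the partner that switches on Cdk2, gave log2 values of 6.07 and 6.26 in anti-DR3 Treg and 6.25 and 6.16 in control Treg. The anti-DR3 arrays stood on either side of both control arrays, and the difference was -0.04 ± 0.096 (95% interval -0.28 to 0.20; adjusted p = 0.840, limma). Cdk2, the kinase of cyclins E and A, read 7.92 and 7.84 in anti-DR3 Treg and 7.63 and 7.37 in control Treg. Both anti-DR3 arrays lay above both control arrays, and the difference was 0.38 ± 0.109 (95% interval 0.12 to 0.65; unadjusted p = 0.0127, adjusted p = 0.0953, limma). The control arrays were 0.257 apart for Cdk2, against 0.073 between the anti-DR3 arrays. Leaving out control antibody replicate 1 moved the difference to 0.51, and leaving out control antibody replicate 2 moved it to 0.25.

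Ccna2, cyclin A2, which binds Cdk2 in S phase and Cdk1 later, gave log2 values of 6.99 and 7.14 in anti-DR3 Treg and 5.16 and 5.29 in control Treg. The lowest anti-DR3 array lay 1.70 above the highest control array, while replicates were 0.152 apart after anti-DR3 and 0.130 apart after control antibody. The difference of 1.84 ± 0.096 (95% interval 1.61 to 2.08; adjusted p = 0.00606, limma) ranked 1 among the 12114 genes tested. Both control values lay below the medians of their arrays, so Ccna2 entered the test through the anti-DR3 arrays alone. A filter on the mean of the 4 arrays, added after seeing the data, also kept it (adjusted p = 0.00573, limma). That mean too passed only through the anti-DR3 values, so this filter is no independent check. With no filter on dim genes the adjusted p of Ccna2 was 0.0494 in limma. The stricter filter, which asks for all 4 arrays above their medians, removed Ccna2 from the test.

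Ccnb2, cyclin B2, a partner of Cdk1 in mitosis, gave log2 values of 8.09 and 7.95 in anti-DR3 Treg and 6.51 and 6.45 in control Treg, all above the array medians. The groups were 1.44 apart at their nearest arrays, and the difference was 1.54 ± 0.088 (95% interval 1.32 to 1.76; adjusted p = 0.00606, limma), rank 15 of all genes tested. Cdk1, the kinase that B-type cyclins activate, read 6.01 and 5.97 in anti-DR3 Treg and 5.63 and 5.40 in control Treg. The lower control value of Cdk1 stood just above the median of its array, 5.39. The groups did not overlap, but the difference of 0.47 ± 0.102 (95% interval 0.22 to 0.72; unadjusted p = 0.00378) missed the threshold at an adjusted p of 0.0555 in limma. It passed in 3 alternatives, with the stricter filter on dim genes (adjusted p = 0.0421, limma), a trended robust prior (0.0447) and log2 of the value plus 16 (0.0465). Over all its alternatives the adjusted p ran from 0.0421 in limma to 0.299 in an ordinary linear model without pooling of the spread. Cyclin and kinase of the mitotic pair thus had windows with the same CHR word and several CCAAT words, as printed above, and differences of 1.54 and 0.47.

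**Figure D2:**
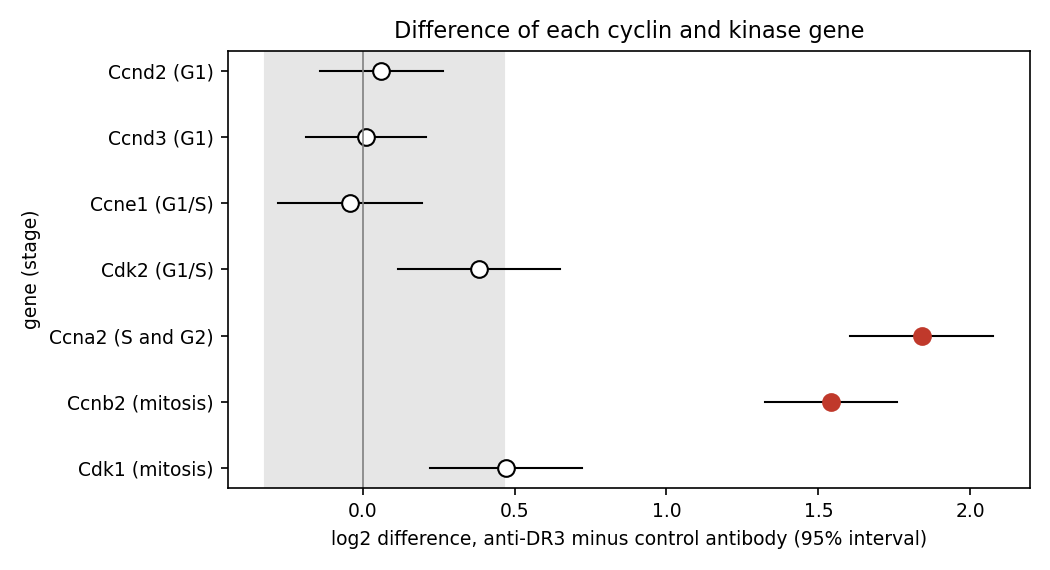
Log2 difference (anti-DR3 minus control antibody) of each measured gene with its 95% interval from limma, ordered by stage. Filled points passed an adjusted p of 0.05, open points did not, and the grey band runs from the 5th to the 95th percentile of all genes tested (-0.32 to 0.47). Ccna2 and Ccnb2 lie beyond the band with intervals that begin above 1.3, and Cdk1 sits at its upper edge.

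Set side by side, the D-type cyclins of G1 lay near 0, and Ccna2, the cyclin of S phase and G2, lay highest. The stages hold unlike genes. G1 has cyclins without their kinases, S phase and G2 has Ccna2 alone, and the others average a cyclin with a kinase. Of the G1 kinases outside this set, Cdk6 differed by 1.13 and Cdk4 by 0.20. Averaged over genes, with no test, the change from the control mean on the anti-DR3 arrays was 0.076 and -0.0033 for the D-type cyclins, 0.144 and 0.199 for Ccne1 with Cdk2, 1.76 and 1.92 for Ccna2, and 1.05 and 0.961 for Ccnb2 with Cdk1. On the control arrays these changes stayed between -0.087 and 0.087. Within stages the cyclin and the kinase differed: Ccnb2 changed by 1.07 more than Cdk1, whereas Ccne1 changed by 0.42 less than Cdk2. The lower control value of Cdk1 lay close to the median of its array, unlike those of Ccnb2, while both control values of Ccna2 lay below the medians. Whether dimness had a part in these differences was not tested. The 2 kinases differed from each other by 0.089, with 0.074 and 0.104 on the anti-DR3 arrays. Ccna2 changed by 1.83 more than Ccnd3 and by 0.30 more than Ccnb2. All 21 pairs of measured genes were compared with a two-sided exact permutation test, and the smallest p the arrays allow is 0.333 (0.389 after Benjamini-Hochberg adjustment over the pairs), so this test could not have called any pair and these differences of differences stand as a description.

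The calls of Ccna2 and Ccnb2 rested on anti-DR3 replicate 2 but their size did not. Without that array both had an adjusted p of 0.0621 in limma, in a fit with 0 genes called among all tested and 1967 under an unadjusted p of 0.05. The differences were then 1.76 for Ccna2 and 1.61 for Ccnb2. Without any other single array both kept the call, and over the 4 fits Ccna2 ran from 1.76 to 1.92 and Ccnb2 from 1.47 to 1.61. An ordinary linear model without pooling of the spread called 0 genes in all (2087 under an unadjusted p of 0.05) and gave both an adjusted p of 0.205.

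**Figure D3:**
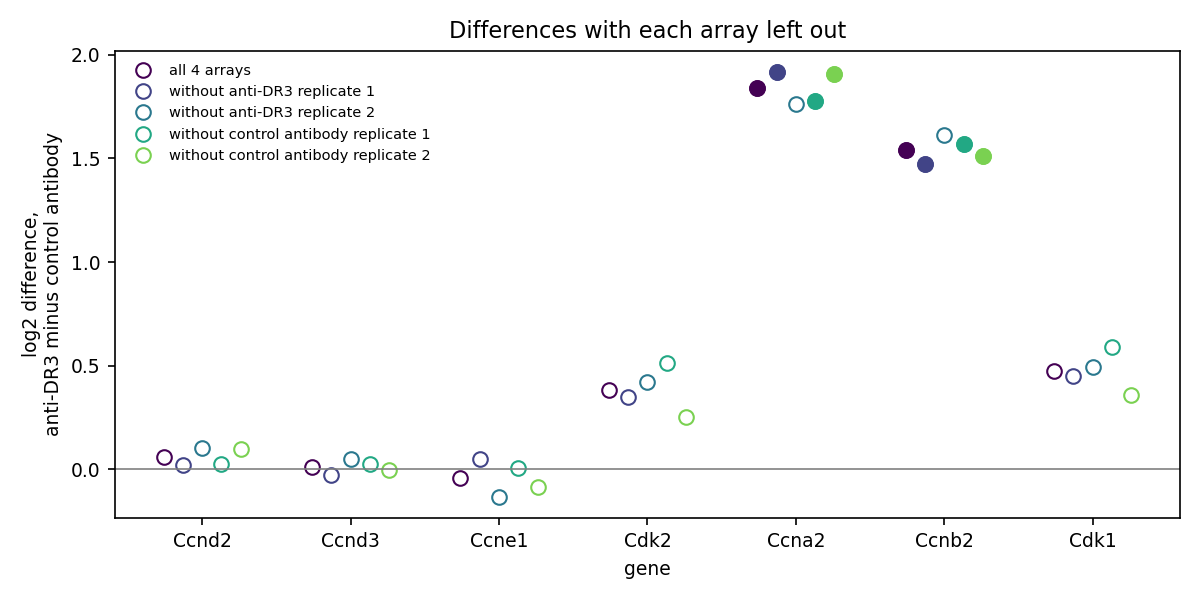
Log2 difference (anti-DR3 minus control antibody) of each measured gene with all 4 arrays and with each array left out, where filled points passed an adjusted p of 0.05 in limma. The filled points are those of Ccna2 and Ccnb2, and both are open without anti-DR3 replicate 2 while staying above 1.6. Ccnd3 and Ccne1 cross 0.

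Profiles closest to the genes that rose were found by the smallest root mean square distance over the 4 arrays, after each gene was centred on its own mean, among all genes tested outside the cyclin set. For Ccna2 the nearest was Mki67, which encodes the proliferation marker Ki-67, at a distance of 0.065, with log2 values of 9.38 and 9.39 in anti-DR3 Treg and 7.50 and 7.71 in control Treg. Next came the chemokine gene Cxcl10 (distance 0.114, difference 1.62) and Esm1, which encodes a secreted proteoglycan (0.119, 1.71). For Ccnb2 the nearest were the histone gene H2ac10 (distance 0.095, difference 1.65), Nuf2 of the kinetochore (0.10, 1.56) and Nusap1, a spindle protein (0.102, 1.38). Esm1, Nuf2 and Nusap1 had both control values below the array medians, so they entered the test through the anti-DR3 arrays alone. All 6 genes lie near because of the size of their difference between groups, and distances over 4 arrays describe these libraries only.

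Around the cyclins, 7 lists of other genes of the same machinery held 117 genes, of which 115 were measured and 102 were bright enough to be tested. Of these 14 rose (13.7%, against 4.49% of all genes tested), 0 fell and 88 did not pass in limma. The lists were chosen with earlier results of these data known, so this share is a description only. The median difference over the 115 was 0.09, against -0.02 over all genes measured. Of the 14, 3 entered the test through the anti-DR3 arrays alone (Cdkn3, E2f8 and E2f3). With an array left out, the count was 0 if it was anti-DR3 replicate 1 or anti-DR3 replicate 2, 4 if it was control antibody replicate 1 and 9 if it was control antibody replicate 2. Leaving dim genes in the test gave 0 as well.

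Among 8 further cyclins, kinases and subunits of the cell cycle, 6 were tested, 2 rose and 0 fell (median 0.17 over the 6 and 0.11 over all 8). The share called was 33.3%, against 5.96% of all genes tested. Cdk6, a kinase partner of the D-type cyclins, gave log2 values of 8.99 and 9.15 in anti-DR3 Treg and 8.09 and 7.78 in control Treg, and rose 2.19-fold (1.13 ± 0.128, adjusted p = 0.0125, limma). Its groups lay well apart, whereas the cyclins it binds, Ccnd2 and Ccnd3, overlapped. Cdk4, the other kinase of that pair, had 8.58 and 8.54 against 8.53 and 8.19, a difference of 0.20 ± 0.126 (adjusted p = 0.374, limma). Ccnd1, cyclin D1, was dim, above the array median on the anti-DR3 arrays only, at 5.37 and 5.35 against 5.19 and 5.24 (adjusted p = 0.288, limma). Cks2, a small subunit that binds CDKs, had 7.30 and 7.27 against 6.55 and 6.20 and rose 1.88-fold (adjusted p = 0.0213, limma).

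Cyclins and kinases that serve transcription, with the kinase Cdk7 and its partners that activate other CDKs, had 0 calls among 15 in limma, and their median difference was 0.0059. In that list 2 genes lay higher and 6 lower after anti-DR3 without overlap of the groups. Both directions together are a share near the 56.1% of all genes tested. The higher ones alone are a smaller share than the 31.6% among all genes tested. The lower ones alone are therefore a larger share than among all genes tested. Those with the largest statistics were Ccnl1 (-0.23, adjusted p = 0.155), Cdk11b (-0.21, 0.166), Ccnh (0.24, 0.172) and Cdk13 (-0.25, 0.187), all by limma. Of 22 other members of the cyclin and CDK families 14 were tested and 0 passed (median 0.14, and 0.05 over the 22). Ccng1, cyclin G1, a target of p53, lay at 0.56 ± 0.122 (adjusted p = 0.0554, limma) and Cdk5 at 0.36 ± 0.096 (adjusted p = 0.0825, limma), both without overlap. Cdk16 (-0.23) and Ccndbp1 (0.20) had adjusted p-values of 0.165 and 0.192 in limma.

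Of 8 genes named as CDK inhibitors, 1 passed, as a rise (12.5%, against 5.96% of all genes tested), and the median was 0.23. The one that rose, Cdkn3, encodes a phosphatase that acts on CDKs rather than an inhibitor that binds them, and had 5.54 and 5.67 after anti-DR3 against 5.04 and 4.69, both of the latter below the array medians (1.67-fold, adjusted p = 0.0375, limma). Cdkn1a, the inhibitor p21, lay at 0.39 ± 0.084 (adjusted p = 0.0534, limma). Cdkn2c and Cdkn2d, inhibitors of Cdk4 and Cdk6, lay at 0.36 (adjusted p = 0.0768, limma) and 0.31 (adjusted p = 0.166, limma). Cdkn1b, the inhibitor p27 of resting lymphocytes, was at -0.05 (adjusted p = 0.745, limma); it was singled out after its values were seen.

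Kinases and phosphatases that set the activity of CDKs had 4 rises and 0 falls among 9 tested of 12 measured, with a median of 0.49 (0.47 over the 12). Of the 9 tested 44.4% were called, against 5.96% of all genes tested. Cdc25b, a phosphatase that switches CDKs on, read 8.32 and 8.43 in anti-DR3 Treg and 7.47 and 7.52 in control Treg, and rose 1.84-fold (adjusted p = 0.0104, limma). Wee1, a kinase that holds Cdk1 off by phosphorylating it, had 6.70 and 6.81 against 6.09 and 6.02 and rose 1.63-fold (adjusted p = 0.0151, limma). Activator and inhibitor of Cdk1 thus both lay higher on both anti-DR3 arrays. Plk1, a kinase of mitotic entry, had 6.98 and 6.80 against 5.961 and 5.997 and rose 1.88-fold (adjusted p = 0.0106, limma). Cdc14b, a phosphatase, rose 1.40-fold (adjusted p = 0.0278, limma).

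Genes of the ubiquitin pathway that destroys cyclins and CDK inhibitors had 2 rises and 0 falls among 26, with a median of 0.16. Its 7.69% called is near the 5.96% of all genes tested. Neither is a ligase subunit: Ube2c is the enzyme that hands ubiquitin to the anaphase-promoting complex, and Mad2l1 is a checkpoint protein that holds this complex back. Ube2c read 6.39 and 6.83 in anti-DR3 Treg and 5.40 and 4.97 in control Treg and rose 2.69-fold (1.43 ± 0.193, adjusted p = 0.0198, limma), and Mad2l1 rose 1.63-fold (adjusted p = 0.0114, limma). Cdc27, a subunit of the complex, lay at 0.35 (adjusted p = 0.0555, limma) and Fbxo31, an F-box protein, at 0.31 (adjusted p = 0.0767, limma).

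Pocket proteins, E2F factors and partners and other factors that drive cyclin genes had 5 rises and 0 falls among 24, at a median of 0.10. The called share was 20.8%, against 5.96% of all genes tested, and 19 did not pass. E2f8, a repressor among the E2F factors, read 6.26 and 6.17 in anti-DR3 Treg and 4.89 and 5.05 in control Treg and rose 2.37-fold (adjusted p = 0.00814, limma), and both control values were below the array medians. The activators E2f2 and E2f3 rose 1.498-fold (adjusted p = 0.0254) and 1.64-fold (adjusted p = 0.0293, limma). Rbl2, the pocket protein p130 of resting cells and a CDK target, had 11.01 and 11.02 against 10.36 and 10.53 and rose 1.48-fold (adjusted p = 0.0281, limma). The last was Tfdp1, the partner of E2F factors (1.39-fold, adjusted p = 0.0318, limma); it was added to the named genes once its value was known.

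**Figure D4:**
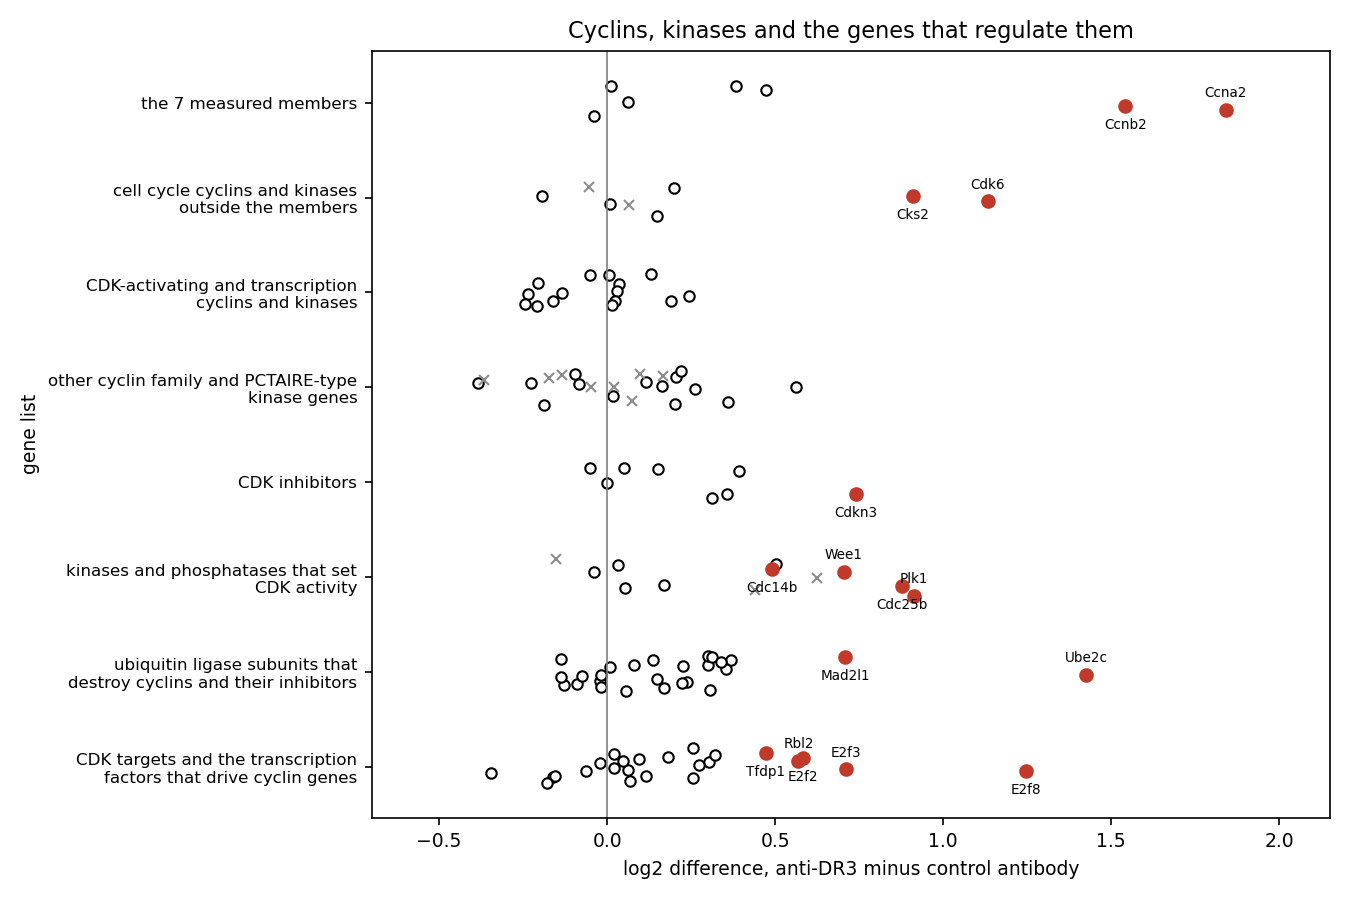
Log2 difference (anti-DR3 minus control antibody) of the 7 measured cyclin and kinase genes and of the 7 lists around them, 1 point per gene, spread vertically within a list only for legibility. Red points passed an adjusted p of 0.05 in limma and are named, open points were tested and did not pass, and grey crosses were too dim to be tested. Every red point lies to the right of 0, and the transcription cyclins and kinases and the other cyclin family and PCTAIRE-type kinase genes have none.

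Across the series, 544 of the genes tested rose and 178 fell in limma; after centring every array on its own median over these genes the split was 348 to 243, and with quantile normalization 362 to 179. Of the genes that define the gate, Foxp3 lay at 0.06 (adjusted p = 0.671, limma) and Cd4 at 0.30 without overlap of the groups (adjusted p = 0.0776, limma), and neither passed. The T cell gene Cd3e lay at 0.02 (adjusted p = 0.884, limma), and of 7 Treg markers 1 rose (Ikzf2) and 1 fell (Il2ra). Both together are 28.6% of the Treg markers, against 5.96% of all genes tested. Of 56 measured markers of other cell types 28 were too dim to be tested. Among the 28 tested 4 rose (14.3%, against 4.49% of all genes tested) and 2 fell, where 1.47% of all genes fell. The rises were Klrg1, Rora, Cd8b1 and Csf1r. Klrg1 and Rora had been listed for type 2 innate lymphoid cells (2 of 4 tested). The log2 of the summed intensities of all measured genes of their list, dim ones included, was 10.99 and 11.19 against 10.23 and 10.08. This is called the summed level below. Klrg1 alone read 10.29 and 10.59 against 9.10 and 8.83. In the same list Gata3 (0.24) and Il13 (-0.09) did not pass, and Il5 was below the array median throughout. Cd8b1 was listed for CD8 T cells (1 of 3, summed level 8.39 and 8.51 against 8.26 and 8.13), with Cd8a below the median throughout. Csf1r was listed for monocytes (1 of 4, summed level 8.49 and 8.64 against 8.29 and 8.45). The falls were Pde3b and Igfbp4 of conventional CD4 T cells (2 of 4 tested). Il7r of the same list lay at 0.44 without overlap (adjusted p = 0.0519, limma). The summed level of that list was higher after anti-DR3, at 11.18 and 11.21 against 10.82 and 10.96. That sum was mostly Il7r, at 11.01 and 11.06 against 10.51 and 10.68, while the median difference of the 4 tested was -0.38. The measured neutrophil (5) and erythroid and platelet (3) markers were below the filter on dim genes. The part of these cells in the values of the cyclins was not tested, and in RNA of sorted populations a larger share of dividing cells and more RNA per cell cannot be told apart.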

How the data were processed

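RNA of sorted Treg was measured on 4 Affymetrix whole-transcript arrays, 2 per group. The deposited values are intensities, not yet in log2, with 1 value for each probe set; the submitters' processing notes name RMA (robust multi-array average) as the method. The labels and headers give no software version and no genome build. RMA forces a shared distribution on the arrays, so a change common to most genes can be hidden. The small number of arrays limits the precision.

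Of 41345 probe sets 23521 had 1 gene symbol, 1814 several and 16010 none listed; Entrez identifiers matched 23328 to a RefSeq table (GRCm38.p6), which updated 0 symbols. After log2, a gene was represented by its brightest probe set and tested if this exceeded the median of all probe sets of the array on at least 2 of 4 arrays (12114 of 22180 genes). limma 3.58.1 (R 4.3.3; lmFit, then eBayes, two-sided, 2 residual and 3.94 prior degrees of freedom) was fitted to all 4 arrays. P-values were adjusted by Benjamini-Hochberg across the genes tested, with calls at 0.05. The code was tested on simulated data. Figures were drawn with matplotlib 3.10.9.

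The genes, lists and tests were chosen with earlier results of these data known. The rule for names took the cyclin genes, the 4 members of each list with the largest moderated statistic, the 3 nearest profiles of each cyclin gene that passed, and tested Treg markers. Alternatives covered the replicate block, each array left out, filters, normalization, variance model, array weights, probe set choice, an offset and thresholds. Nothing in the labels says what a replicate number shares; the replicate differences of the 2 groups correlated at 0.051 across genes, and 2 pairs cannot show pairing.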

Additional observations from a re-analysis of the deposited data

How the results depend on the processing

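For the 7 measured genes, 97 of 111 values under alternatives kept their sign and their side of 0.05; 4 fell out of the calls, 4 entered them and 6 changed sign. The changes of sign were Ccnd3, at -0.049 with arrays centred on their own medians, -0.0598 with quantile normalization and -0.0275 to 0.0507 with an array left out, and Ccne1, at -0.132 to 0.0509 with an array left out. Cdk1 entered the calls in 3 settings and Cdk2 in 1, the trended robust prior (adjusted p = 0.0433, limma). Over its alternatives Cdk2 ran from that value to an adjusted p of 0.360 in the ordinary linear model. The fits with 1 array left out assume that the lone array varies like the other group and called 0 to 2 of the 7 genes, 0 to 9 of the genes in the lists around them, and over all genes 0 to 245 higher and 0 to 67 lower. No filter on dim genes gave 14 higher and 0 lower over all genes (3573 under an unadjusted p of 0.05, limma) and 0 in the lists, with Ccna2 and Ccnb2 still called; it tested 22180 genes in place of 12114. Centring gave 348 higher over all genes and quantile normalization 362. The trended robust prior gave 1082 higher and 362 lower, 4 of the 7 genes (with Cdk1 and Cdk2) and 1 lower in the lists. The ordinary linear model gave 0 higher and 0 lower over all genes (2087 unadjusted), 0 of the 7 and 0 in the lists. An adjusted p under 0.10 gave 1171 higher and 518 lower, 4 of the 7 and 25 in the lists, and a 2-fold minimum 69 higher and 3 lower, and 3 in the lists. The replicate block called 563 genes, 497 of them shared with the fit without it, among them Ccna2 and Ccnb2, and changed no call of the 7 genes. The stricter filter on dim genes gave no value for Ccna2, which it left untested. The planned protein comparison was not run. Where no construction is named, the cause of a change was not tested.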
